A study of Homo sapiens with 83 samples.

Results

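Serine and one-carbon metabolism was examined through 10 genes: PHGDH, PSAT1, PSPH, SHMT1, SHMT2, MTHFD1, MTHFD2, MTHFD2L, MTHFD1L and ALDH1L2. They were chosen by gene symbol, and each symbol had exactly 1 of the 60237 entries of the expression table. Poly-A RNA was sequenced in 83 libraries of SHEP and SKNAS, established lines of human neuroblastoma engineered to express N-MYC-ER, in which N-MYC is joined to the hormone-binding part of the estrogen receptor. Cells of all groups carried this protein, were cultured in DMEM high glucose with fetal bovine serum, and received dexamethasone to set their clocks to a common phase. MYC-ON cells had been given 4-hydroxytamoxifen (4OHT), which moves the fusion to the nucleus, and MYC-OFF cells ethanol as vehicle. Both were given a day before dexamethasone. Circadian time (CT) counts the hours since dexamethasone, and RNA was collected at intervals of 4 h from CT24. SHEP had 2 series per condition, each a replicate experiment, with 28 MYC-OFF and 28 MYC-ON libraries to CT76. SKNAS had a single series, with 14 libraries in MYC-OFF (to CT76) and 13 in MYC-ON (to CT72). The fusion is made at all times in both conditions, so the MYCN transcript, at 365 to 555 TPM in group means and at 13.1 to 1046 TPM in single SKNAS libraries, is no check of activation. Effects of 4OHT and of N-MYC activity cannot be told apart in this design.

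Serine is made from a glycolytic intermediate in 3 steps, by PHGDH, PSAT1 and PSPH. Serine hydroxymethyltransferases then split serine into glycine and a one-carbon unit carried on folate, SHMT2 in mitochondria and SHMT1 in the cytosol. In mitochondria the unit is oxidized by MTHFD2 or its paralog MTHFD2L and released as formate by MTHFD1L, or burned to CO2 by ALDH1L2. In the cytosol the single protein MTHFD1 carries out the matching reactions and takes up the formate for purine and thymidylate synthesis. The mitochondrial branch runs high in many proliferating and embryonic cells, and several of these genes are known targets of MYC proteins and of ATF4, the transcription factor of the amino acid stress response.

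In build GRCh38 (Gencode 44) all 10 are protein-coding genes. The serine synthesis genes are PHGDH (chr1:119648411-119744218, plus strand), PSAT1 (chr9:78297125-78330093, plus) and PSPH (chr7:56011051-56051604, minus). The cytosolic genes are SHMT1 (chr17:18327860-18363563, minus) and MTHFD1 (chr14:64388031-64463457, plus). The mitochondrial genes are SHMT2 (chr12:57229573-57234935, plus), MTHFD2 (chr2:74186172-74217565, plus), MTHFD2L (chr4:74114174-74303099, plus), MTHFD1L (chr6:150865679-151101887, plus) and ALDH1L2 (chr12:105019784-105107643, minus).

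The letters before the transcription start are shown for the genes that moved most with N-MYC activation, MTHFD1L, PSAT1 and MTHFD2, and for MTHFD1, the cytosolic counterpart of MTHFD1L. RefSeq (build GRCh38.p14) had a start window, 250 bases before to 50 bases after the start, for 7 of the 10 genes. PSPH, SHMT2 and ALDH1L2 had no window in the table used. Each line gives the 250 bases before the start, 5′ to 3′ on the plus strand, and capitals mark the E-box CACGTG, the letters that MYC and MAX bind, and TGATGNAA, the core of the element bound by ATF4 with C/EBP proteins, searched on both strands. MTHFD1L has 4 windows, of which 3 overlap and hold both motifs, and the one with the most distal motifs is printed.
MTHFD1L (chr6:150866236-150866485): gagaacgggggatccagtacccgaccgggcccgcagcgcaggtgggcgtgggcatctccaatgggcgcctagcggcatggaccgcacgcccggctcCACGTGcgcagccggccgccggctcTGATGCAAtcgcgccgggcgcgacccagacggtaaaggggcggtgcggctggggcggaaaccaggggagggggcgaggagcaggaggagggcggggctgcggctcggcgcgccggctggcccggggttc
MTHFD1 (chr14:64388103-64388352): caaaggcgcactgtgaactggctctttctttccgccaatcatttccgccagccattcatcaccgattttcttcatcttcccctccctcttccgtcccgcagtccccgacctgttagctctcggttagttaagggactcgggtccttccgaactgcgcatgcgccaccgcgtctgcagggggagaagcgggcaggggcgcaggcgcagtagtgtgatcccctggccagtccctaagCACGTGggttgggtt
PSAT1 (chr9:78296875-78297124): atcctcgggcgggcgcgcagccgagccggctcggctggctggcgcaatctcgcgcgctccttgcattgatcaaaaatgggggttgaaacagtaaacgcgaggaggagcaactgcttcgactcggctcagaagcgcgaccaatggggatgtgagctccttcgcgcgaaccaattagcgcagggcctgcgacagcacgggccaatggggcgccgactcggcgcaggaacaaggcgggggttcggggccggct
MTHFD2 (chr2:74198365-74198614): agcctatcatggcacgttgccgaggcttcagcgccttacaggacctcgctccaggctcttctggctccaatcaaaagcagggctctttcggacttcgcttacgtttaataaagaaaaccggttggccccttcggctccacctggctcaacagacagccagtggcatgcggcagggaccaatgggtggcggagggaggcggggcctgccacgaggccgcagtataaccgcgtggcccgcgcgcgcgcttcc
The E-box was in a window of 2 of the 7 genes, MTHFD1L and MTHFD1, and in 7.23% of 34943 RefSeq start windows of the same length. The ATF4 core was in windows of MTHFD1L only among the 7 genes, and in 3.62% of all windows. A gene was counted if any of its windows held the letters, while the percentages count windows, so the units differ. In the MTHFD1L window the E-box begins at position -154 and the core at position -129 from the start, without overlapping each other. Neither set of letters was in the windows of PSAT1 or MTHFD2, and the letters say nothing of binding in these cells.

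Levels are in TPM, a share of all transcripts in a library after division by gene length, so genes can be compared within a library. In SHEP MYC-OFF the 10 genes spanned from SHMT2 at 142 ± 14.1 TPM (SD, n = 28) down to MTHFD2L at 6.29 ± 1.23. MTHFD2 (117 ± 13.8) and PHGDH (113 ± 13.6) followed SHMT2 and did not differ from each other beyond their spread, and MTHFD1 stood at 90.5 ± 4.62. MTHFD1L (58.7 ± 6.82), PSPH (52.4 ± 6.11) and PSAT1 (52.1 ± 10.2) formed a group of neighbours within their spread. SHMT1 was at 25.2 ± 3.33 and ALDH1L2 at 12.1 ± 3.03. In SHEP MYC-ON the order changed at the top: MTHFD2 (262 ± 28.5) and MTHFD1L (194 ± 39.5) led, then SHMT2 (180 ± 16.8) and PSAT1 (143 ± 30.7). The plot of TPM by CT in SHEP shows the 2 conditions as separate bands for MTHFD2 and MTHFD1L, and as interleaved lines for PHGDH, SHMT1 and MTHFD2L.

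**Figure D1:**
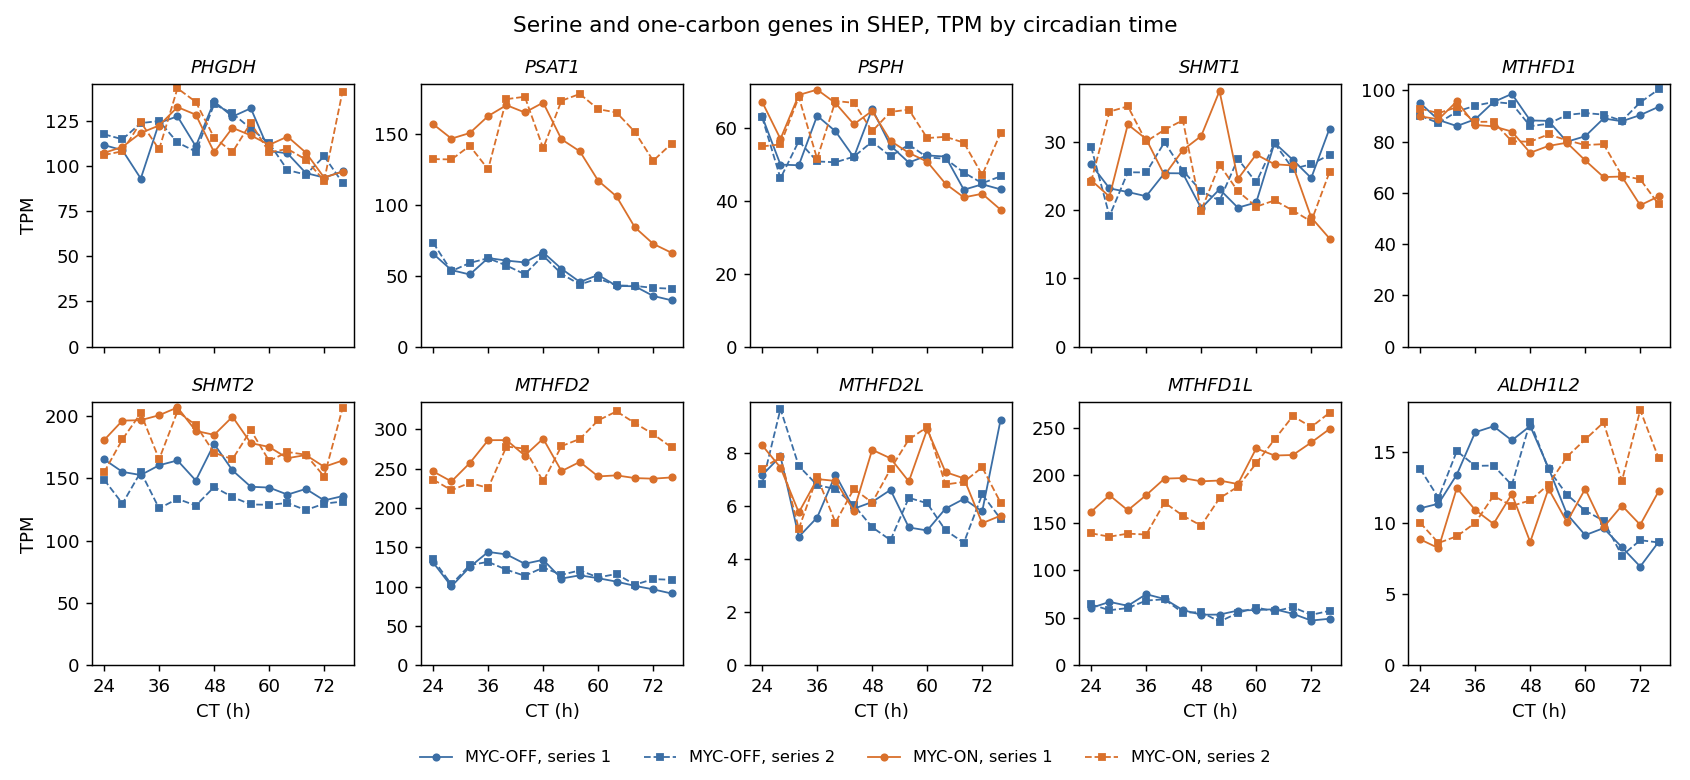
TPM (vertical axis, starting at 0) against CT in hours for each of the 10 genes in SHEP. Lines join the libraries of 1 series (circles series 1, squares series 2), MYC-OFF in blue and MYC-ON in orange. For MTHFD1L all MYC-ON libraries (135 to 266 TPM) lie above all MYC-OFF libraries (45.9 to 74.8 TPM), and the gap widens with time.

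In SHEP, activation of N-MYC-ER raised 4 of the 10 genes, MTHFD1L, PSAT1, MTHFD2 and SHMT2, and lowered MTHFD1. Calls needed a difference of at least 0.15 on the log2(TPM + 1) scale and a p, adjusted over all genes tested by the method of Benjamini and Hochberg, of at most 0.05. These calls were common in SHEP: 33% of 14362 genes were called higher in MYC-ON and 38.9% lower. Against that background the 4 of 10 called higher is close to the rate of all genes. A rise of 1.5-fold (0.66 on the log2 scale) was called for 9.39% of all genes and for 3 of the 10. The median difference of the 10 genes was 0.13, beside -0.036 over all genes tested. In these bulk cultures, fewer cells that express a gene and less of its RNA per cell cannot be told apart.

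MTHFD1L, which releases formate from the mitochondrion, showed the largest difference of the 10. Its lowest, median and highest values were 45.9, 58.0 and 74.8 TPM in MYC-OFF and 135, 192 and 266 TPM in MYC-ON. Every MYC-ON library was thus above every MYC-OFF library, which held for 6.11% of the genes tested in SHEP. The difference was 1.69 ± 0.063 (SE) on the log2(TPM + 1) scale (limma, adjusted p = 3.23e-27), with MYC-ON higher in 28 of 28 pairs of the same series and CT.

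MTHFD2, the dehydrogenase and cyclohydrolase of the mitochondrial branch, had 91.2, 115 and 144 TPM as lowest, median and highest values in MYC-OFF. In MYC-ON they were 223, 258 and 323 TPM, so the groups did not overlap for this gene either. The difference was 1.16 ± 0.042 on the log2 scale (limma, adjusted p = 8.88e-28), again in 28 of 28 pairs. Its paralog MTHFD2L was far lower, at a median of 6.12 TPM in MYC-OFF and 7.02 in MYC-ON (n = 28 each). The difference of MTHFD2L, 0.14 ± 0.055, was under the limit of 0.15 (limma, adjusted p = 0.020), which it passed with a pseudocount of 0.1 (0.16), after rescaling (0.18) and with the library median as a covariate (0.23).

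SHMT2, which feeds serine into the mitochondrial branch, had 125, 139 and 178 TPM as lowest, median and highest values in MYC-OFF and 152, 180 and 207 TPM in MYC-ON. The groups overlapped, yet MYC-ON was higher in 28 of 28 pairs, by 0.34 ± 0.035 on the log2 scale (limma, adjusted p = 3.94e-12). ALDH1L2, which oxidizes the one-carbon unit instead of exporting it, averaged 12.1 ± 3.03 TPM in MYC-OFF and 11.7 ± 2.52 in MYC-ON. Its difference was -0.035, with a 95% interval of -0.20 to 0.13. Its courses in time are described further on.

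Of the cytosolic genes, MTHFD1 fell by 0.21 on the log2 scale (SE 0.040, limma, adjusted p = 6.74e-06). It had 80.0, 90.2 and 100.4 TPM as lowest, median and highest values in MYC-OFF and 55.2, 80.1 and 95.7 TPM in MYC-ON, with MYC-ON lower in 23 of 28 pairs. The call was lost with the library median as a covariate (-0.094) and with the 2 series means as replicates (adjusted p = 0.065). SHMT1 had a difference of 0.040, with a 95% interval of -0.097 to 0.18, and levels of 25.2 ± 3.33 TPM in MYC-OFF and 26.3 ± 5.64 in MYC-ON.

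The 3 enzymes of serine synthesis did not move together in SHEP. PSAT1, the transaminase of the middle step, had 32.7, 51.3 and 73.5 TPM as lowest, median and highest values in MYC-OFF and 66.4, 147 and 179 TPM in MYC-ON. MYC-ON was higher in 28 of 28 pairs, by 1.42 ± 0.066 on the log2 scale (limma, adjusted p = 6.76e-24). The ranges overlapped only through the CT72 and CT76 libraries of series 1. PHGDH, the first step, averaged 113 ± 13.6 TPM in MYC-OFF and 115 ± 13.1 in MYC-ON, higher in 14 of 28 pairs, with a difference of 0.027 and a 95% interval of -0.048 to 0.10. PSPH, the last step, had a difference of 0.12 ± 0.042 (limma, adjusted p = 0.0082), under the limit of 0.15. It passed the limit without series 1 (0.19), after rescaling the libraries (0.17) and with the library median as a covariate (0.16).

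In SKNAS the libraries themselves differed in a way that touches these genes. The median over genes of log2(TPM + 1), a summary of how evenly a library spreads over genes, was 3.93 to 4.17 in all SHEP libraries, and 2.97 to 4.38 in SKNAS MYC-OFF and 2.76 to 4.25 in SKNAS MYC-ON. In SKNAS 4 of 14 libraries were under 3.8 in MYC-OFF, and 10 of 13 in MYC-ON. Read depth per library is unknown, since all TPM columns sum to 1000000. Of the neuroblastoma markers, PHOX2A and TH were at or near 0 TPM in SHEP, and VIM was high in both lines (1431 to 3469 TPM in group means). PTPRC, a leukocyte gene, averaged 80.4 TPM in SKNAS MYC-OFF and 21.5 in MYC-ON and was at or near 0 in SHEP. The other genes of that list, ALB, EPCAM and PECAM1, were under 1.2 TPM in every group mean, and 6 further leukocyte genes, chosen after the PTPRC value was seen (CD3E, CD2, CD79A, SPI1, TYROBP and LYZ), did not exceed 0.364 TPM in any SKNAS library. The part of PTPRC-expressing cells in the results was not tested.

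In SKNAS, activation of N-MYC-ER raised MTHFD1L, PSAT1 and MTHFD2, as in SHEP, and lowered PSPH, while the other 5 genes tested were not called. Among all 13886 genes tested in SKNAS, 13.7% were called higher and 34.4% lower in MYC-ON, 6.97% were higher 1.5-fold, and the median difference was -0.29. All 3 genes called higher of the 9 tested passed the 1.5-fold limit. The median difference of the 9 genes was 0.14. ALDH1L2 averaged 0.227 TPM in MYC-OFF and 0.192 TPM in MYC-ON and was too low to be tested.

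MTHFD1L had 16.3, 21.5 and 25.0 TPM as lowest, median and highest values in SKNAS MYC-OFF and 53.3, 63.2 and 83.7 TPM in MYC-ON. The groups did not overlap, which held for MYC-ON above MYC-OFF in 2.32% of the genes tested in SKNAS. The difference was 1.56 ± 0.095 on the log2 scale (limma, adjusted p = 1.03e-08), with MYC-ON higher at 13 of 13 shared CTs. It hardly moved with the library median: the 10 MYC-OFF libraries with a median of at least 3.8 averaged 21.0 ± 2.69 TPM and the 4 below it 21.6 ± 2.84. In MYC-ON the 3 libraries with a median of at least 3.8 averaged 63.2 ± 3.59 TPM and the 10 below it 66.7 ± 9.58.

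MTHFD2 depended on the library far more. Its lowest, median and highest values were 32.8, 109 and 130 TPM in SKNAS MYC-OFF and 53.6, 181 and 323 TPM in MYC-ON, so the groups overlapped. Among libraries with a median of at least 3.8 it averaged 116 ± 9.09 TPM in MYC-OFF (n = 10) and 280 ± 39.0 in MYC-ON (n = 3), and below 3.8 it averaged 49.2 ± 25.2 (n = 4) and 139 ± 60.7 (n = 10). The log2 difference over all libraries was 0.77 ± 0.22 (limma, adjusted p = 0.010). Within the libraries of at least 3.8 it was 1.25. The plot of TPM by CT in SKNAS shows MTHFD2, PSAT1, PSPH and SHMT1 dipping in the same low-median libraries, and MTHFD1L without such dips.

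**Figure D2:**
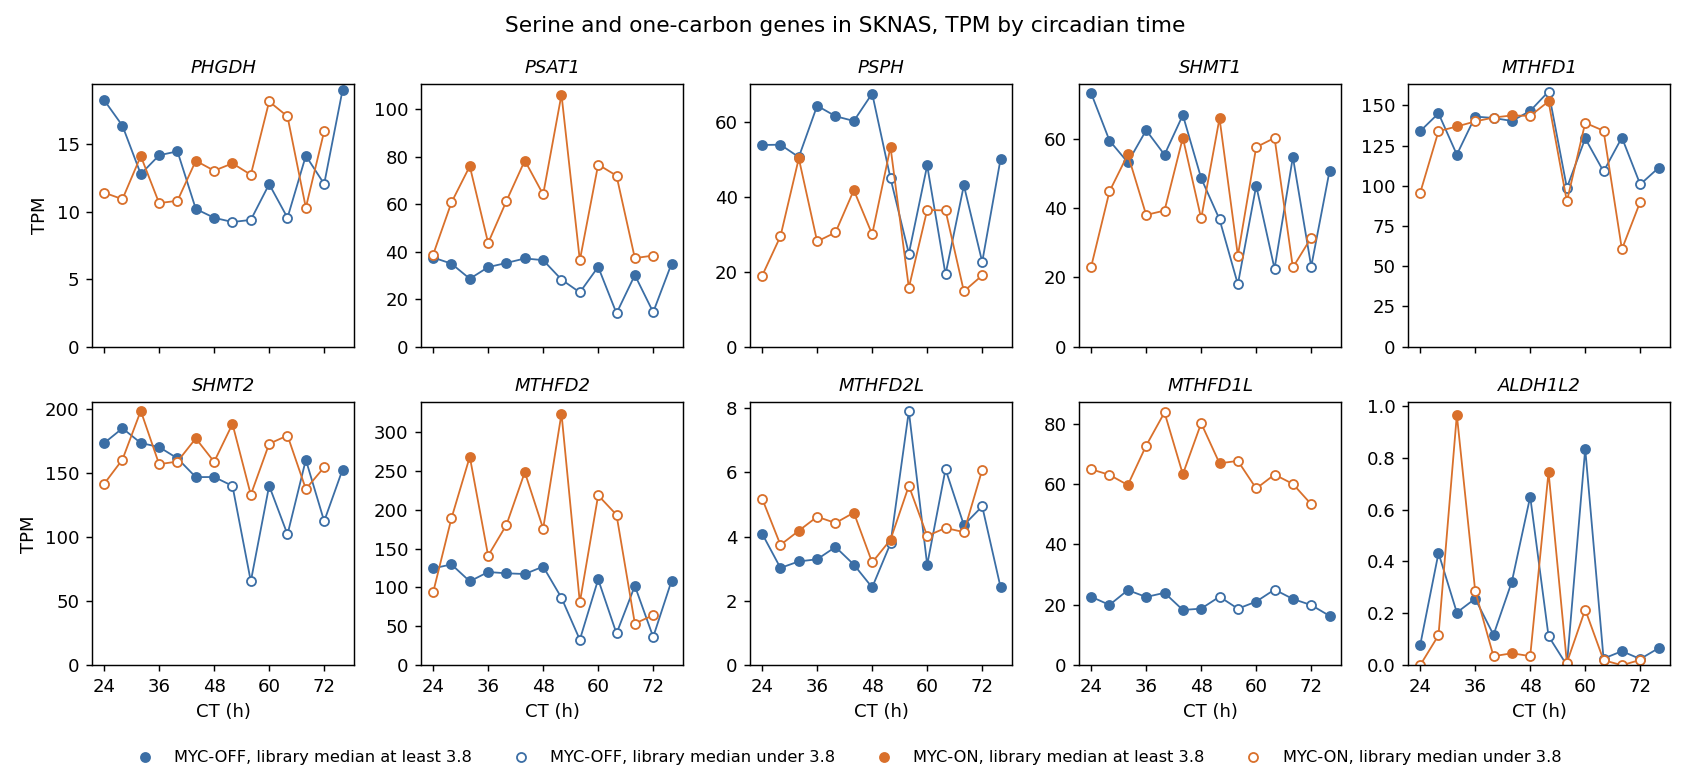
TPM (vertical axis, starting at 0) against CT in hours for each of the 10 genes in SKNAS, 1 series per condition, MYC-OFF in blue and MYC-ON in orange. Filled circles are libraries whose median log2(TPM + 1) was at least 3.8 and open circles those under it. For MTHFD1L the conditions stay apart at every CT (MYC-OFF up to 25.0 TPM, MYC-ON from 53.3 TPM), and ALDH1L2 stays under 1 TPM.

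PSAT1 had 14.1, 33.5 and 37.5 TPM as lowest, median and highest values in SKNAS MYC-OFF and 36.3, 61.4 and 106 TPM in MYC-ON. The ranges touched at their ends, MYC-ON was higher at 13 of 13 shared CTs, and the difference was 0.99 ± 0.17 on the log2 scale (limma, adjusted p = 2.71e-04). PSPH fell by 0.60 (SE 0.19, limma, adjusted p = 0.016), from a median of 50.4 TPM to one of 30.0 TPM, and was lower in MYC-ON at 11 of 13 CTs. That call did not hold within the libraries of at least 3.8, where PSPH averaged 55.4 ± 7.80 TPM in MYC-OFF (n = 10) and 48.5 ± 5.97 in MYC-ON (n = 3) and differed by -0.18 (limma, adjusted p = 0.28). With the library median as a covariate it differed by -0.16 (limma, adjusted p = 0.096).

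The remaining SKNAS genes had wide intervals. SHMT2 had a difference of 0.21 with a 95% interval of -0.054 to 0.47, and PHGDH one of 0.092 with an interval of -0.21 to 0.40. SHMT1 (-0.11, interval -0.57 to 0.35), MTHFD1 (-0.11, interval -0.36 to 0.13) and MTHFD2L (0.14, interval -0.081 to 0.36) were not called either. After rescaling the libraries by the median of ratios, PHGDH (0.44), SHMT2 (0.58) and MTHFD2L (0.42) were called higher, and with the library median as a covariate PHGDH (0.33), SHMT2 (0.41) and SHMT1 (0.38) were. Rescaling moved the median difference of all genes in SKNAS from -0.29 to 0.032. Of all genes tested in SKNAS it changed the calls from 1903 higher and 4772 lower to 3833 higher and 3315 lower. With the covariate, 3924 of all genes were higher and 3620 lower.

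**Figure D3:**
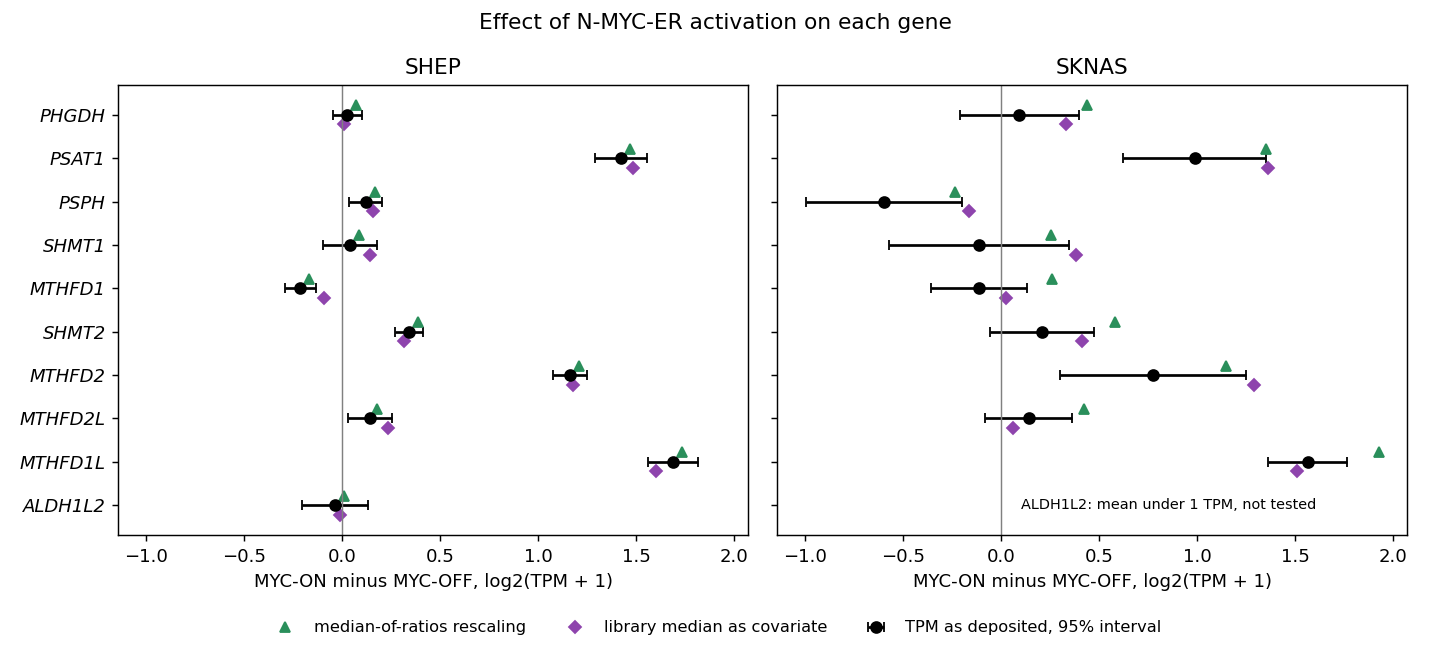
Difference of each gene between MYC-ON and MYC-OFF on the log2(TPM + 1) scale (horizontal axis) in SHEP (left) and SKNAS (right). Black circles are the values from TPM as deposited with 95% intervals, green triangles the values after median-of-ratios rescaling and purple diamonds those with the library median as a covariate. MTHFD1L, PSAT1 and MTHFD2 are to the right of 0 in both lines under all 3 treatments of the data, while most other genes move by more in SKNAS than in SHEP when the scaling changes.

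Whether the N-MYC effect itself differed between SHEP and SKNAS was tested with an interaction term (83 libraries). PSPH (-0.72 ± 0.13), PSAT1 (-0.43 ± 0.14) and MTHFD2 (-0.39 ± 0.15) had a lower N-MYC effect in SKNAS than in SHEP (limma, adjusted p = 5.02e-06, 0.0099 and 0.027), among 38.1% of the 14870 genes tested with such a call. The interaction of MTHFD1L was -0.12, with a 95% interval of -0.34 to 0.096. Only the PSPH difference held in all alternatives run, between -0.79 and -0.36. None of these was limited to SKNAS libraries with a median of at least 3.8, where the SKNAS fall of PSPH was not called. With each line keeping its own spread, PSPH was the 1 gene of the 3 still called (limma estimates, adjusted p = 0.018), and PSAT1 (adjusted p = 0.10) and MTHFD2 (adjusted p = 0.23) were not. With the library median as a covariate the value of MTHFD2 was 0.040 and that of PSAT1 was -0.12.

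With N-MYC-ER inactive, the lines differed in most of these genes. Each line was grown in its own experiments, so line and experiment cannot be told apart. The p-values take time points as replicates, with 1 series in SKNAS. PHGDH, MTHFD1L, PSAT1, MTHFD2L, MTHFD2 and PSPH were lower in SKNAS than in SHEP, and SHMT1 and MTHFD1 were higher. Among all 14926 genes tested, 46.4% were lower and 32.1% higher. PHGDH was 113 ± 13.6 TPM in SHEP MYC-OFF and had a median of 12.4 TPM in SKNAS MYC-OFF (n = 28 and 14). The highest SKNAS library was at 19.0 TPM and the lowest SHEP library at 90.8. The difference was -3.05 ± 0.084 on the log2 scale (limma, adjusted p = 3.65e-25). ALDH1L2 was between 6.93 and 17.1 TPM in SHEP MYC-OFF and at most 0.834 TPM in SKNAS MYC-OFF. It was listed at 0 in 1 SKNAS MYC-OFF library. ALDH1L2 reached the mean of 1 TPM needed for testing only through SHEP, where it is high, so its test and call are not given.

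MTHFD1L (-1.43 ± 0.048), PSAT1 (-0.80 ± 0.075), MTHFD2L (-0.59 ± 0.10), MTHFD2 (-0.38 ± 0.12) and PSPH (-0.22 ± 0.10) were also lower in SKNAS MYC-OFF, with limma adjusted p from 8.42e-23 to 0.048. The calls of MTHFD2 and PSPH were lost without either SHEP series, and the value of PSPH was 0.052 with the library median as a covariate. The cytosolic genes SHMT1 (0.81 ± 0.12) and MTHFD1 (0.49 ± 0.051) were higher in SKNAS (limma, adjusted p = 4.30e-07 and 3.28e-10). SHMT2 was at 142 ± 14.1 and 145 ± 32.5 TPM, a difference of -0.010 with a 95% interval of -0.17 to 0.15. MTHFD1L stood at 65.9 ± 8.56 TPM in SKNAS MYC-ON, beside 58.7 ± 6.82 TPM in SHEP MYC-OFF, and these ranges overlapped.

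Branch balance was followed within each library as the log2 ratio of (TPM + 1) of a mitochondrial gene to its cytosolic counterpart. Apart from the added 1, such a ratio does not depend on the library's total. It can still differ with the library median. These ratios were described and not tested. How often ratios of other genes separate the groups was not computed. MTHFD1L over MTHFD1, the genes that make and use formate, went from -0.62 ± 0.17 to 1.28 ± 0.50 in SHEP (SD, n = 28 each). In SKNAS it went from -2.55 ± 0.25 to -0.86 ± 0.36 (n = 14 and 13). In SHEP this ratio passed from below 0 in all MYC-OFF libraries (highest -0.24) to above 0 in all MYC-ON libraries (lowest 0.56), so MTHFD1L overtook MTHFD1. In SKNAS the groups were separate as well, but MTHFD1L stayed below MTHFD1 in every MYC-ON library (highest -0.011).

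SHMT2 over SHMT1 moved less, from 2.46 ± 0.26 to 2.76 ± 0.25 in SHEP and from 1.64 ± 0.30 to 1.96 ± 0.37 in SKNAS, with overlapping ranges in both lines. MTHFD2 over MTHFD1 went from 0.36 ± 0.17 to 1.73 ± 0.28 in SHEP without overlap, and from -0.52 ± 0.55 to 0.33 ± 0.48 in SKNAS with overlap. The 2 genes of this ratio differed in how they went with the library median in SKNAS. In MYC-OFF, MTHFD2 averaged 116 TPM in the 10 libraries of at least 3.8 and 49.2 TPM in the 4 below. MTHFD1 averaged 134 and 117 TPM in the same libraries. MTHFD2 over its paralog MTHFD2L went from 4.03 ± 0.30 to 5.05 ± 0.23 in SHEP without overlap, and from 4.23 ± 1.05 to 4.81 ± 0.94 in SKNAS with overlap. ALDH1L1, the cytosolic counterpart of ALDH1L2, was at 0.217 TPM in both SHEP groups and at 1.08 and 0.164 TPM in SKNAS MYC-OFF and MYC-ON, so a ratio of these genes rests on values near 0 in both lines.

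Summed over genes, the 5 mitochondrial genes stood at 336 ± 30.8 TPM in SHEP MYC-OFF and 655 ± 60.2 in MYC-ON, and averaged 268 (125 to 338) and 405 (255 to 583) TPM in SKNAS. The 2 cytosolic genes stood at 116 ± 7.11 and 105 ± 15.2 TPM in SHEP and averaged 177 (117 to 207) and 167 (83.4 to 218) TPM in SKNAS. The log2 ratio of these sums went from 1.53 ± 0.16 to 2.64 ± 0.31 in SHEP and from 0.57 ± 0.19 to 1.28 ± 0.14 in SKNAS. In both lines every MYC-ON library was above every MYC-OFF library in this ratio. The plot of ratios by library shows SKNAS MYC-ON (1.07 to 1.60) overlapping SHEP MYC-OFF (1.22 to 1.85) and below every SHEP MYC-ON library (2.14 to 3.23).

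**Figure D4:**
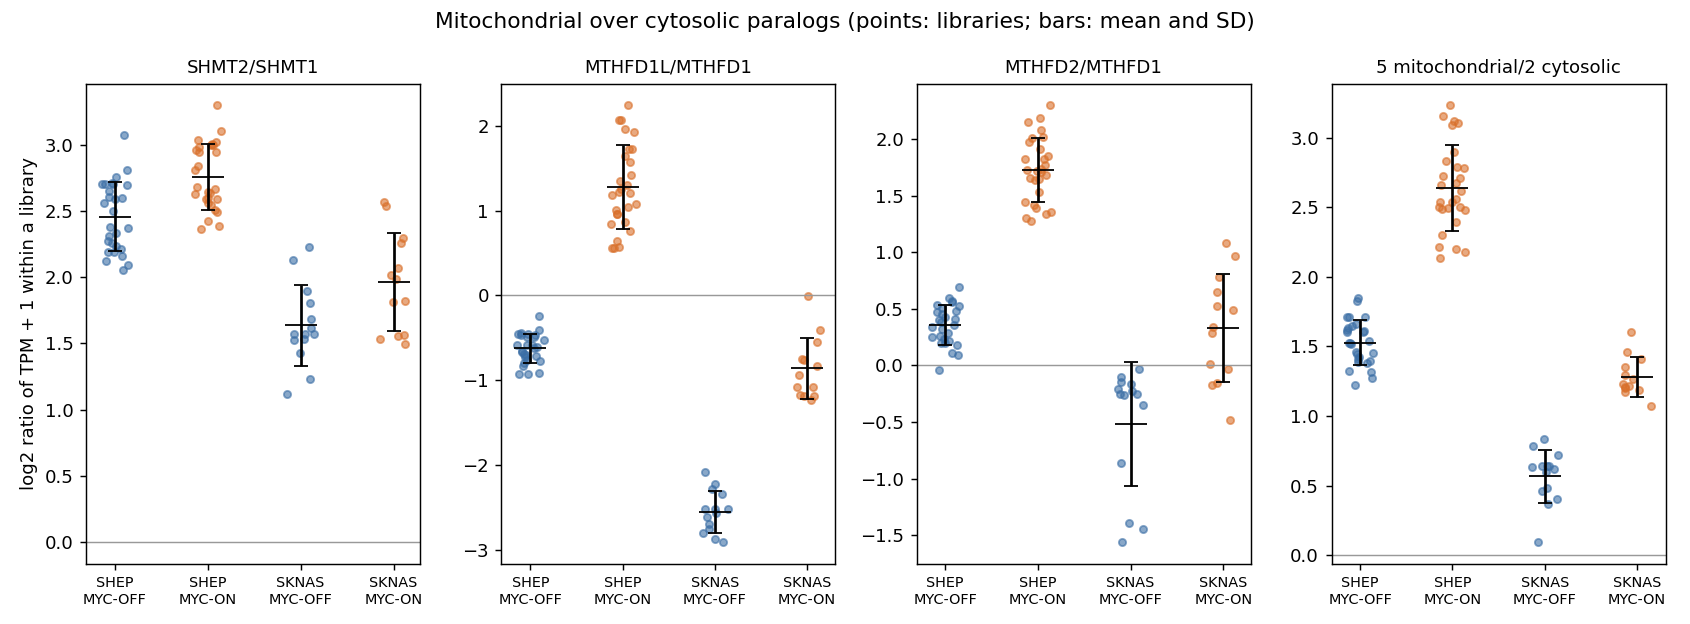
Log2 ratio of TPM + 1 within a library (vertical axis) for 3 mitochondrial over cytosolic gene pairs and for the sums of the 5 mitochondrial and 2 cytosolic genes. Points are libraries of the 4 groups and bars the mean and SD. The groups are separate in both lines for MTHFD1L/MTHFD1 and for the sums, and overlap in both for SHMT2/SHMT1.

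Several of the genes drifted with time in culture in SHEP, and for the mitochondrial genes MTHFD1L, ALDH1L2 and MTHFD2 and for both cytosolic genes the drift differed between conditions. The drift was fitted as a linear trend over CT in each condition with a level for each series, and is given as the log2 change over 48 h. In MYC-OFF 6 of the 10 genes fell and none rose, against 7.27% of 14362 genes called falling, with a median of -0.26 for the 10 and -0.036 over all genes. In MYC-ON, where trends were frequent (21.1% of all genes rose and 38.6% fell), 2 of the 10 rose and 5 fell. The trend differed between conditions for 5 of the 10 genes, 3 higher and 2 lower in MYC-ON, beside 16.1% and 27.3% of all genes.

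MTHFD1L rose by 0.76 ± 0.077 over 48 h in SHEP MYC-ON (limma, adjusted p = 2.36e-12) and fell by 0.28 in MYC-OFF (SE 0.077, limma, adjusted p = 0.010). In MYC-ON it averaged 168 TPM in series 1 and 138 TPM in series 2 from CT24 to CT32, and 226 and 250 TPM from CT64 to CT72. In MYC-OFF the same windows gave 63.2 and 60.7 TPM, then 53.4 and 57.0 TPM. The MYC-ON trend was 0.51 in series 1 alone and 1.01 in series 2 alone, and the difference between conditions was 1.04 ± 0.11 (limma, adjusted p = 3.83e-11).

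ALDH1L2 followed the same pattern at a lower level. In MYC-OFF it fell from 11.9 and 13.5 TPM at CT24 to CT32 to 8.28 and 8.87 TPM at CT64 to CT72 (series 1 and 2), a trend of -0.70 ± 0.13 (limma, adjusted p = 6.09e-05). In MYC-ON its trend was 0.48 ± 0.13 (limma, adjusted p = 8.88e-04), which rested on series 2: 0.78 in series 2 alone and 0.18 in series 1 alone (limma, adjusted p = 0.44 for series 1). The difference of trends was 1.18 ± 0.18 (limma, adjusted p = 3.15e-07), and was 0.91 and 1.45 in the 2 series. MTHFD2 had a difference of trends of 0.45 ± 0.11 (limma, adjusted p = 9.64e-04), which series 1 alone did not pass (0.29, limma, adjusted p = 0.16). It fell by 0.30 in MYC-OFF and had a trend of 0.15 in MYC-ON that was not called.

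The cytosolic genes had lower trends in MYC-ON than in MYC-OFF. MTHFD1 had a trend of 0.0048 in SHEP MYC-OFF ( 95% interval -0.095 to 0.10) and fell by 0.59 in MYC-ON (SE 0.050, limma, adjusted p = 6.76e-15). In MYC-ON it averaged 91.5 and 92.5 TPM at CT24 to CT32 in series 1 and 2, and 62.6 and 70.4 TPM at CT64 to CT72. In MYC-OFF the same windows gave 89.9 and 89.7 TPM, then 89.1 and 91.4 TPM. SHMT1 fell by 0.48 in MYC-ON (limma, adjusted p = 8.76e-04), called in series 2 alone (-0.61) and not in series 1 alone (-0.35).

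PSAT1 fell by 0.69 in MYC-OFF (limma, adjusted p = 2.90e-04), with -0.74 and -0.65 in the 2 series. In MYC-ON its trend of -0.49 was decided by 1 series: it was -1.12 in series 1 alone, from 152 to 87.7 TPM between the windows, and 0.13 in series 2 alone, from 136 to 150 TPM. PSPH likewise fell by 0.44 in MYC-ON over both series, with -0.77 in series 1 and -0.11 in series 2. In MYC-OFF it fell by 0.28, and SHMT2 fell by 0.20 in MYC-OFF and 0.15 in MYC-ON. PHGDH and MTHFD2L had no called trend in either condition. Without series 1, only PSAT1 and ALDH1L2 kept a called fall in MYC-OFF.

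**Figure D5:**
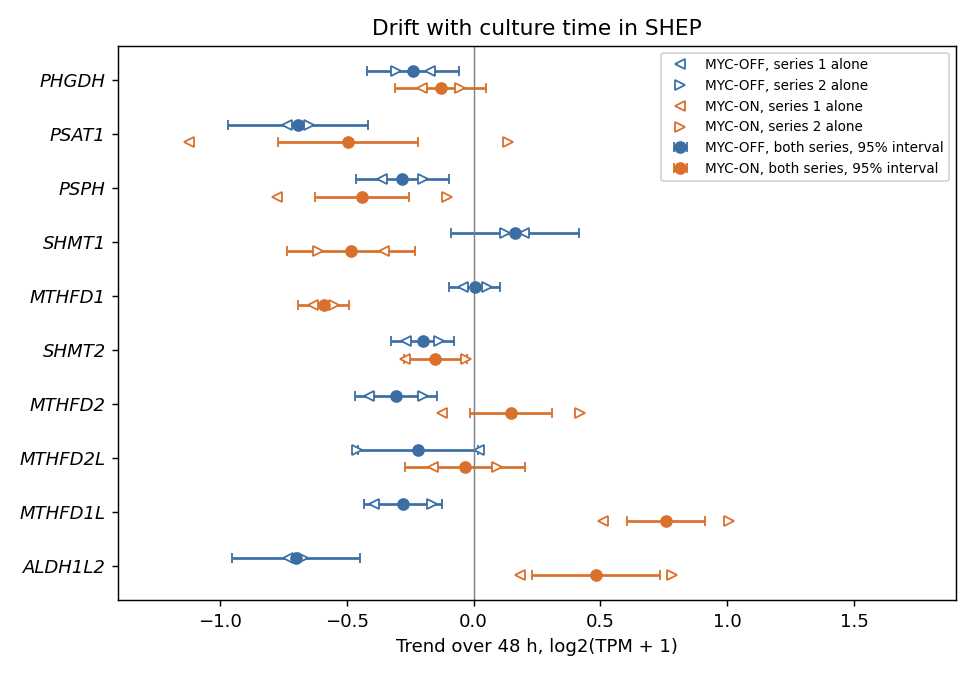
Linear trend of each gene over 48 h of CT in SHEP on the log2(TPM + 1) scale (horizontal axis). Filled circles with 95% intervals are fits over both series, MYC-OFF in blue and MYC-ON in orange, and open triangles are the fits of 1 series alone. MTHFD1L and ALDH1L2 lie left of 0 in MYC-OFF and right of it in MYC-ON, and for PSAT1 in MYC-ON the 2 series lie on opposite sides of 0.

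In SKNAS no trend was called for any of the 9 genes tested, with limma and 1 series per condition. Calls were rare over all genes there, 0.151% in MYC-OFF and 0.166% in MYC-ON. At an unadjusted p under 0.05, 3 of the 9 had a trend in MYC-OFF, beside 4929 of all 13886 genes, and none in MYC-ON, beside 1011 of 13886. The MYC-OFF values ran from -1.06 for MTHFD2 to 0.26 for MTHFD2L, with a median of -0.55 beside -0.61 over all genes, and the 4 low-median libraries of MYC-OFF all came from CT52 onward.

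A 24 h rhythm was called for none of the 10 genes in SHEP (limma, cosine and sine terms at 24 h after removal of the trend). Such calls were also rare over all genes, 0.0911% of those tested in MYC-OFF and 0.021% in MYC-ON. At an unadjusted p under 0.05, MTHFD1L was the 1 gene in MYC-OFF and MTHFD1 the 1 gene in MYC-ON, beside 10.4% and 10.7% of all genes. MTHFD1L in SHEP MYC-OFF had a peak-to-trough difference of 0.25 on the log2 scale with its peak near hour 14.2 of the 24 h cycle (limma, adjusted p = 0.12). In SKNAS none of the 9 genes had a p under 0.05 in either condition. Among all genes there, 0.446% did in MYC-OFF and 0.344% in MYC-ON. No difference of rhythm between conditions was called in either line for these genes, nor for any other gene tested (14362 in SHEP, 13886 in SKNAS). In SHEP, MTHFD1 and MTHFD1L had an unadjusted p under 0.05 for that difference (limma), beside 4.94% of all genes. In SKNAS none of the 9 did, beside 0.526% of all genes.

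The genes most alike in course were looked up over the 56 SHEP libraries, after removal of the mean of each series and condition. These libraries share CTs and series, so the correlations are descriptions. PSAT1 was most alike to PSPH (Pearson r = 0.86), the next enzyme of serine synthesis, then to GHITM (0.85) and to the tRNA synthetase gene IARS1 (0.83). MTHFD2 was most alike to the tRNA synthetase genes GARS1 (0.88), EPRS1 (0.83) and IARS1 (0.80), and ALDH1L2 to GARS1 (0.79), EPRS1 (0.79) and CARS1 (0.76). PHGDH was most alike to SHMT2 (0.72), SLC3A2 (0.66) and JDP2 (0.64), SHMT2 to the amino acid transporter genes SLC1A5 (0.79) and SLC3A2 (0.76) and to PSPH (0.76), and PSPH to PSAT1, NOP14-AS1 (0.82) and SLC1A4 (0.81).

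MTHFD1L and the cytosolic genes had other neighbours. MTHFD1L was most alike to PYGL (r = 0.86), CCPG1 (0.84) and NFKB2 (0.84), and MTHFD1 to POGLUT3 (0.94), TIMELESS (0.93) and GOLM1 (0.93). SHMT1 was most alike to DTYMK (0.73), GTF3C5 (0.71) and SNRPB (0.70), and MTHFD2L, at low levels, to PPP1R9A (0.56), PRPF39 (0.55) and NEGR1 (0.54). Among the 10 genes themselves, MTHFD2 and ALDH1L2 had an r of 0.73, MTHFD1L and MTHFD1 one of -0.66, and PSAT1 and MTHFD1L one of -0.0082 over the same 56 libraries.

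Of 35 further genes that transport, use or recycle serine, glycine, folate and methionine, 26 were tested in SHEP, with 11 higher and 12 lower in MYC-ON, and 29 in SKNAS, with 5 higher and 9 lower. Over all genes 33% were higher and 38.9% lower in SHEP, and 13.7% and 34.4% in SKNAS. The SKNAS balance depended on the treatment of the libraries: 12 were higher and 6 lower after rescaling, 11 and 8 with the library median as a covariate, and 10 and 12 of 31 tested in the libraries of a median of at least 3.8. The balance of all genes moved too. Of all 13886 genes, 3833 were higher and 3315 lower after rescaling, and 3924 and 3620 with the covariate. In the libraries of at least 3.8 they were 2914 and 3699 of 14217. The median difference was -0.0085 in SHEP and -0.14 in SKNAS. Genes of the list moved 1.5-fold in the same direction in both lines in 4 cases. GCSH, the carrier protein of the mitochondrial glycine cleavage system, was higher by 0.71 in SHEP and 1.42 in SKNAS. GCAT, a mitochondrial enzyme of threonine breakdown to glycine, was higher by 1.06 and 1.20, with 38.3 ± 3.54 and 81.0 ± 9.25 TPM in SHEP MYC-OFF and MYC-ON, and 13.8 ± 2.93 and 32.8 ± 3.91 TPM in SKNAS. CTH, which makes cysteine from cystathionine, was higher by 0.76 and 1.17. SRR, serine racemase, was lower in both, at -0.69 and -1.21.

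By role, 4 of the 7 tested genes of glycine and serine use were higher and 2 lower in SHEP, and 4 of 9 were higher and 4 lower in SKNAS. Of 7 transport genes tested in SHEP, 3 were higher and 3 lower, with SLC1A4, a serine and alanine transporter, at -1.09, and of 5 tested in SKNAS none was called by limma. Of folate genes, 1 was higher and 5 lower of 7 tested in SHEP, and 1 higher and 4 lower of 9 in SKNAS. MTFMT, which uses formyl-folate to start mitochondrial translation, was the higher gene in both lines (1.07 and 0.47).

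Of the methionine cycle, 3 of 5 genes tested were higher and 2 lower in SHEP. MTRR, which reactivates methionine synthase, was higher by 1.03 and AHCY, which splits S-adenosylhomocysteine, by 0.78. In SKNAS 1 of 6 was called, BHMT2, with a difference of -1.82 (15.1 TPM in MYC-OFF and 3.38 in MYC-ON). BHMT2 was listed at 0 in all SHEP libraries. In SKNAS, MTRR (0.21) and AHCY (0.39) were not called, but both were higher after rescaling (0.56 and 0.76), with the covariate (0.89 and 0.75) and in the libraries of a median of at least 3.8 (1.24 and 0.49). SDSL was lower in SHEP (-0.62) and in SKNAS (-0.74, not called after rescaling). CBS, which makes cystathionine from serine, was higher in SHEP (0.61) and in SKNAS (0.60), the latter not called without a filter or with a pseudocount of 0.1. DLD was called lower in SKNAS (-0.98), and its value was 0.063 within the libraries of a median of at least 3.8. Of the 7 genes of the amino acid stress response, 6 were higher and 1 lower in SHEP, and 4 higher and 1 lower in SKNAS, beside the shares over all genes given above. In SHEP 3 were higher without series 2, where DDIT3 (0.25), CHAC1 (0.051) and SESN2 (0.12) were not called, and 4 with series means as replicates. Of all genes, 4442 of 14323 and 3443 of 14362 were higher at these settings. In SKNAS 6 were higher after rescaling or with the covariate, beside 3833 and 3924 of all 13886 genes. ASNS (1.83 in SHEP and 1.34 in SKNAS), TRIB3 (1.07 and 0.83), DDIT3 (0.71 and 0.78) and ATF4 (0.72 and 0.44) were higher in both, CHAC1 was higher in SHEP (0.36) and not called in SKNAS (0.45), ATF5 was lower in SHEP (-0.71) and not called in SKNAS (0.010), and SESN2 was higher in SHEP (0.32) and lower in SKNAS (-0.58). Pseudogene copies could take reads from these genes, and their 14 entries stayed at or below 0.624 TPM in every group mean, with 5.09 TPM as the highest value in any library.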

How the data were processed

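The authors mapped reads to Gencode transcripts (GRCh38) with Salmon 1.3.0 and collapsed them to genes with Tximport, and the deposited values are TPM for 60237 genes in 83 libraries. All columns sum to 1000000, so the depth of each library is unknown and no counting error is given. Samples were grouped by cell line and treatment as labelled. The study used a count model, and here log2(TPM + 1) was tested per line by limma (version 3.58.1, R version 4.3.3), with CT as a factor and time points as replicates. Genes with a mean of at least 1 TPM were tested and p-values were adjusted over all of them. Differences on this scale understate changes of low genes. Time points of a series share an experiment and are not independent repeats. For the N-MYC effect, CT as a factor removes what is common to a CT, so p-values measure the scatter left within CTs. In SHEP this includes the gap between the 2 series. In SKNAS it is only how the difference between conditions varied over CTs. The difference of the N-MYC effect between lines was an interaction over all libraries. In every comparison of lines, the line cannot be told apart from the experiment. Trends had a level per series and rhythms a 24 h cosine and sine. Tests were run on simulated data with errors drawn independently for each gene and library. That check does not cover deviations shared within a series or a library, such as the low-median SKNAS libraries. No 2 library columns were identical. Series numbers in SHEP mark replicate experiments shared by both conditions, and the deviations of series 1 from series 2 correlated between conditions over genes (r = 0.49). The members, lists and tests were chosen with earlier results of these data known. Genes outside the 10 were named by rule: list genes called 1.5-fold in the same direction in both lines, up to 3 others per line and direction with the largest difference, ALDH1L1, the stress response genes, and the 3 most alike genes per member. Some genes covered by these lists are not reported here. Gene spans came from Gencode 44 and promoters from RefSeq, both on GRCh38. Alternatives were another pseudocount (0.1), filter (none or 5 TPM), median-of-ratios rescaling, the library median as a covariate, leaving out each SHEP series, a replicate block, series means, and SKNAS libraries with a median of at least 3.8. The comparison with each line's own spread was added after the data were seen. U2OS cells and a second SKNAS experiment that the study describes were not used here.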

Additional observations from a re-analysis of the deposited data

Results flagged for a closer look

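The effect of N-MYC activation differed between the lines for 3 of the 10 genes by an interaction test, beside 51.5% of all 14870 genes tested. It was lower in SKNAS than in SHEP by -0.72 for PSPH, -0.43 for PSAT1 and -0.39 for MTHFD2 on the log2 scale, and only PSPH was still called with each line's own spread.

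The trend over CT in SHEP differed between MYC-ON and MYC-OFF for 5 genes by the test of that difference, beside 43.4% of all 14362 genes tested. It was higher in MYC-ON by 1.18 for ALDH1L2, 1.04 for MTHFD1L and 0.45 for MTHFD2, and lower by -0.64 for SHMT1 and -0.60 for MTHFD1 over 48 h. The differences of MTHFD1L, ALDH1L2 and MTHFD1 were called in each series alone, while those of MTHFD2 and SHMT1 were not called in series 1 alone. The causes of these differences were not tested.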

How the results depend on the processing

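MTHFD1L, PSAT1 and MTHFD2 were called higher in both lines under all alternatives run. A replicate block left 4 genes called higher and 1 lower in SHEP and changed no call there. Of all 14362 genes, 4765 were then higher and 5605 lower. Dropping the replicate block from the trends gave 5 and 4 falling genes in MYC-OFF and MYC-ON, with SHMT2 no longer called in either. Of all genes, 780 and 5304 then fell. With the library median as a covariate or with series means as replicates, 0 genes were lower in SHEP, beside 4787 and 4091 of all 14362. In SKNAS, rescaling and the covariate each gave 6 genes higher, and the covariate and the libraries of a median of at least 3.8 each gave 0 lower, which leaves out PSPH. Of all 13886 genes, 3833 were higher and 3315 lower after rescaling, and 3924 and 3620 with the covariate. In the libraries of at least 3.8, 2914 of 14217 genes were higher and 3699 lower. For the difference between lines, rescaling and the covariate each gave 2 higher (PHGDH and MTHFD1) and 1 lower, own spread gave 1 lower, and leaving out a SHEP series gave 1 to 2 lower. Of all 14870 genes, 3800 were higher and 3653 lower after rescaling, and 3771 and 3223 with the covariate. Own spread gave 1901 of 12306 lower. Leaving out series 1 gave 3350 of 14882 lower, and leaving out series 2 gave 3345 of 14871. Leaving out a series gave 2 to 6 genes falling in SHEP MYC-OFF, 1 to 3 rising and 2 to 4 falling in MYC-ON, and 1 to 2 with a lower trend in MYC-ON than in MYC-OFF. Of all genes, 79 of 14374 fell in MYC-OFF without series 1 and 1426 of 14323 without series 2. In MYC-ON, 2681 and 2452 rose and 4473 and 5076 fell. A lower trend in MYC-ON was called for 2955 and 2775. The sign turned for SHMT1 in SKNAS (0.38 with the covariate), for the MTHFD2 difference between lines (0.040) and the PSPH level between lines (0.052) with the covariate, for the SHMT2 level with rescaling (0.16) and for the PSAT1 trend in SHEP MYC-ON, which ran from -1.12 without series 2 to 0.13 without series 1. The ALDH1L2/ALDH1L1 ratio in SKNAS, near 0 TPM, rose by 1.73 with a pseudocount of 0.1 and by 0.74 with 1. The causes were not tested. SKNAS had 1 series, so nothing there has a repeat, and unknown depth leaves values near 0 TPM without an error.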
